A study of Arabidopsis thaliana with 8 samples.

Results

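Transcript levels in both hormone- and light-related mutants of an Arabidopsis seedling study were set against those in both of its wild types, with the question which probe sets moved the same way in both mutants. The members were chosen by label alone, as the 4 arrays of the mutants and the 4 arrays of the wild types, so that all 8 arrays of the study entered the comparison. The wild types were Ws (Wassilewskija, stock N2360) and Ler (Ler-0, stock NW20). The mutants were a de-etiolated line in the Col background (stock N6159) and a gibberellin-deficient line in the Ler background (stock N3106), whose allele is given as leaky. They are called the de-etiolated line and the gibberellin-deficient line where values are listed by array. Each group had 2 arrays of total RNA from whole 7-day-old seedlings that had received no treatment. Neither mutated gene is named in the labels. The samples hold no wild type of Col, so in the de-etiolated mutant the mutation and the Col accession cannot be told apart. Whether replicate arrays stand for separate cultures is not stated. The p-values of the fit with 4 group means cover the spread between replicate arrays alone, which may be technical.

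Seedlings raised in darkness normally stay pale, with a long hypocotyl and closed cotyledons, and de-etiolated mutants take on the look of light-grown seedlings without light. Gibberellins are diterpenoid hormones that promote germination and the elongation of stems and hypocotyls, and plants short of them are dwarfed and dark green. Light and gibberellin signalling meet at DELLA proteins and PIF transcription factors.

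Signals were close in scale on all arrays, with a 2%-trimmed mean of 100.01 and a median between 34.9 and 38.4. Across probe sets, log2 signal correlated at 0.973 to 0.978 within groups, at 0.908 to 0.920 between arrays of the 2 mutants, at 0.939 to 0.950 between arrays of the 2 wild types and at 0.913 to 0.966 between mutant and wild-type arrays. By this measure the mutants were no closer to each other than to the wild types. The shoot marker RCA, which activates Rubisco, had a signal of 473 in de-etiolated replicate 1 and of 913 to 1255 in the other arrays. The root-hair expansins EXPA7 and EXPA18 had signals of 59.5 to 127 and of 167 to 327 over all arrays. None of these 3 markers was called between the mean of the mutants and that of the wild types. Between the mutants, EXPA18 was called, lower in the de-etiolated one (log2 difference -0.68, limma adjusted p = 0.0314). The seed, flower and senescence markers of the same list were not measured. In whole seedlings, fewer cells of a type and less RNA per cell cannot be told apart.

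One array control did separate the mutants from the wild types. Signal of the 25S ribosomal RNA control was 32.0 and 22.2 in Ws, 30.3 and 26.0 in Ler, 108 and 62.4 in the de-etiolated line, and 69.7 and 39.6 in the gibberellin-deficient line. All 4 mutant arrays lay above all 4 wild-type arrays. The exact two-sided permutation test gave p = 0.0286, the smallest that 4 arrays against 4 allow. After Benjamini-Hochberg adjustment over the 5 control values compared, this p was 0.143. The test took replicate arrays of a line as independent, so its p-values can be too small for a comparison of lines. The 4 ratios of 3′ to 5′ signal for actin, GAPDH and ubiquitin had exact permutation p-values of 0.571 to 0.943. The 25S signal split the arrays in the same way as the comparison of mutants with wild types, and its part in the results of that comparison was not tested.

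**Figure D1:**
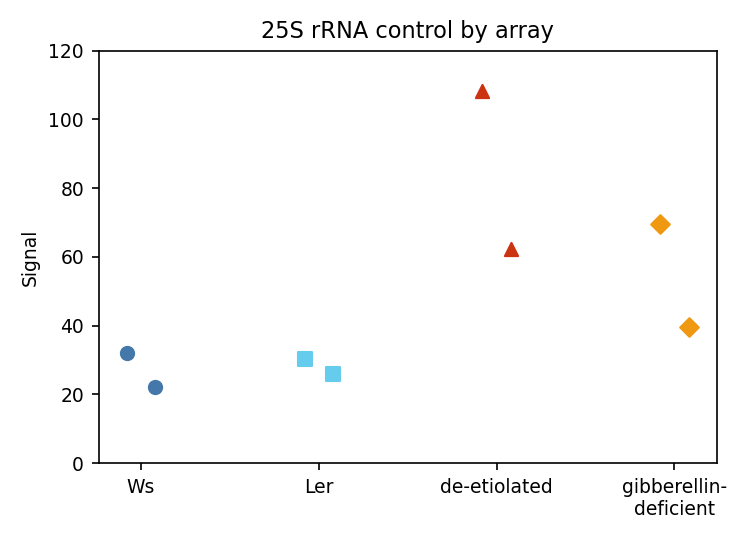
Signal of the 25S ribosomal RNA control on a linear axis, by group, with 1 point for each array. The lowest mutant array, at 39.6, lies above the highest wild-type array, at 32.0.

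Over the whole array, 1585 of 13648 probe sets tested differed between the mean of the mutants and the mean of the wild types, 754 higher (5.52%) and 831 lower (6.09%) in the mutants (limma, Benjamini-Hochberg adjusted p under 0.05), which is 11.6% of those tested. A difference of this mean can come from 1 mutant alone. Both mutant group means lay beyond both wild-type group means in the direction of the call for 1277 probe sets (9.36%), 591 higher (4.33%) and 686 lower (5.03%). That order of group means was met with or without a call by 4878 probe sets (35.7%). Every mutant array lay beyond every wild-type array for 819 (6.00%), of which 377 were higher (2.76%) and 442 lower (3.24%). The same array order was met with or without a call by 1402 probe sets, or 10.3% of those tested. In what follows, the 819 called probe sets with this array order are the shared differences, and a change is the mean log2 signal of the mutants minus that of the wild types, given with the standard error (SE) of the fit.

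How many differences were counted as shared turned on what was taken as error. The count of 1585 uses the spread between arrays of a group, with 4 groups in the fit. When the 4 mutant and the 4 wild-type arrays were fitted as 2 classes, differences between the lines within a class also counted as error. With that fit 9 probe sets were called (0.0659%), and all 9 were shared differences. It still took the 2 arrays of a line as independent, so its p-values can be too small for a comparison of lines. A test that asks each mutant to differ from each wild type, taking the largest p of the 4 pairs, called 0 probe sets after adjustment (limma). Its smallest adjusted p was 0.0822, and 342 probe sets (2.51%) passed at an unadjusted p under 0.05, 146 higher and 196 lower. Leaving out 1 array at a time gave 734 to 1570 calls in the comparison of means. The lowest counts were 734 without gibberellin-deficient replicate 1, 766 without Ws replicate 2, 817 without gibberellin-deficient replicate 2 and 895 without de-etiolated replicate 1, and there were 1007 without Ler replicate 2 and 1050 without Ler replicate 1. Of the 819 shared differences, 316 (38.6%) stayed called in all 8 fits without 1 array, 135 higher and 181 lower.

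Most shared differences were small. The higher ones had a median change of 0.58, with a range of 0.28 to 2.76, and 32 of 377 were at least 2-fold. The lower ones had a median of -0.59, with a range of -3.56 to -0.27, and 58 of 442 were at least 2-fold. Over all 13648 probe sets tested the median change was 0.01, and 167 were at least 2-fold. In 22 of the shared differences, 5 higher and 17 lower, the smallest of the 4 mutant to wild-type gaps was itself at least 2-fold. This held for 24 of all probe sets tested. The median signal of the 819 shared differences over the arrays was 141.7, against 84.7 for all probe sets tested. By pair, 125 of the 819 were called in the de-etiolated mutant against Ws, 410 against Ler, 423 in the gibberellin-deficient line against Ws and 458 against Ler. Over all probe sets tested, the counts for the same 4 pairs in the same order were 306, 2164, 2456 and 1464. In each of the 4 pairs taken singly 47 of the 819 were called, and 58 of all tested. The pairs share arrays, so these counts are not independent of each other. Of the 819, 418 probe sets named 1 gene, as did 7339 of the 13648 tested. By nuclear chromosome, 4.45% to 6.31% of the tested probe sets that name 1 gene were shared differences, and of 68 plastid genes none was.

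**Figure D2:**
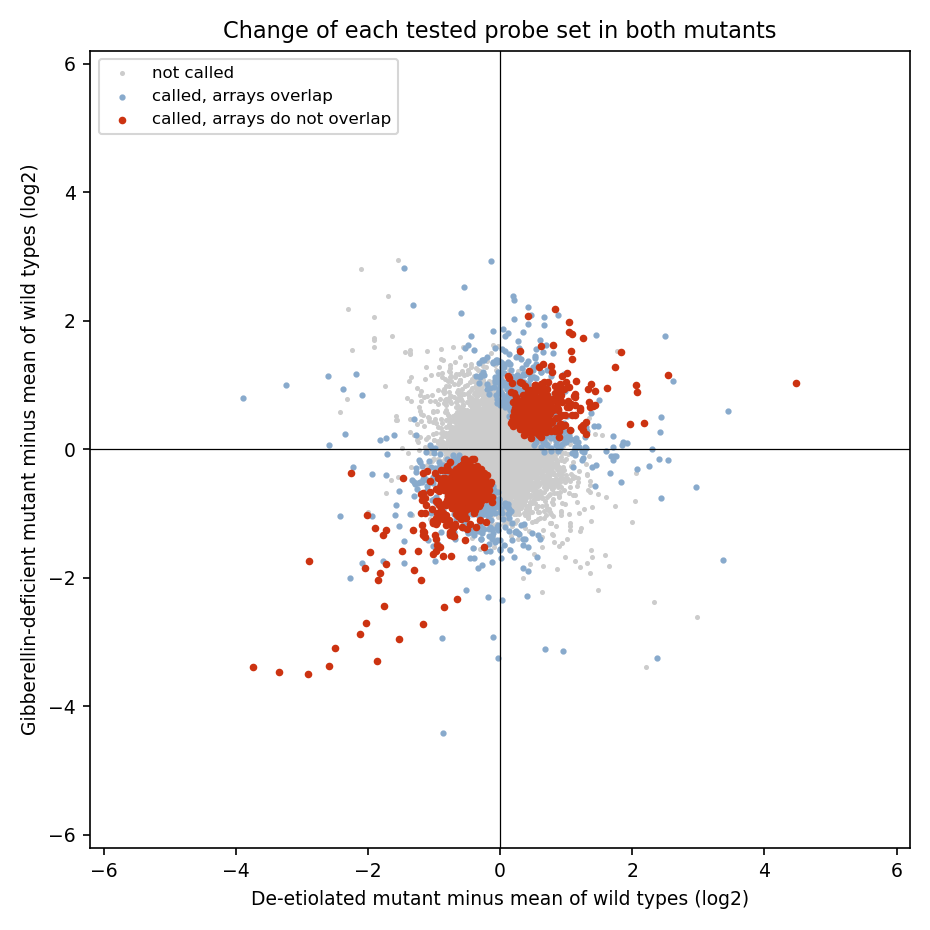
Log2 difference from the mean of both wild types in the gibberellin-deficient mutant against that in the de-etiolated mutant, with 1 point for each probe set tested, the shared differences in red and the other calls in blue. The 377 shared rises lie where both differences are above 0 and the 442 shared falls where both are below 0; both axes share the wild-type arrays.

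In the probe sets called in the 2-class fit the difference between the classes was large against the spread of the arrays within them, as a call in that fit requires. Of these 9, 3 were higher and 6 lower in the mutants, and 1 of them, for AT3G16530, names a gene here, while the others are given by probe set. Signal of 266353_at was 510 and 362 in Ws and 352 and 375 in Ler, against 125 and 78.5 in the de-etiolated line and 130 and 126 in the gibberellin-deficient line. It changed by -1.78 (SE 0.15), and its 2-class adjusted p was 0.0289 (limma). Signal of 264360_at was 348 and 355 in Ws, 317 in both Ler arrays, 176 and 202 in the de-etiolated line, and 184 and 178 in the gibberellin-deficient line. The 4 mutant values of this probe set thus lay within a narrow band well below the wild types. Signal of 261226_at, the largest rise of the 9, was 120 and 106 in Ws, 103 and 85.3 in Ler, 505 and 273 in the de-etiolated line, and 321 and 280 in the gibberellin-deficient line. Its change was 1.67 (SE 0.17). The remaining ones were 260914_at (1.25) and 253522_at (1.11), which were higher, and 248036_at (-1.02), 247964_at (-1.06) and 254805_at (-1.56), which were lower. All 9 stayed called in the 4-group fit without any 1 array, and none was called between the mutants. The 2-class fit counts a difference between the mutants as error and so selects against it. The lack of calls between the mutants is therefore a description of the choice.

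**Figure D3:**
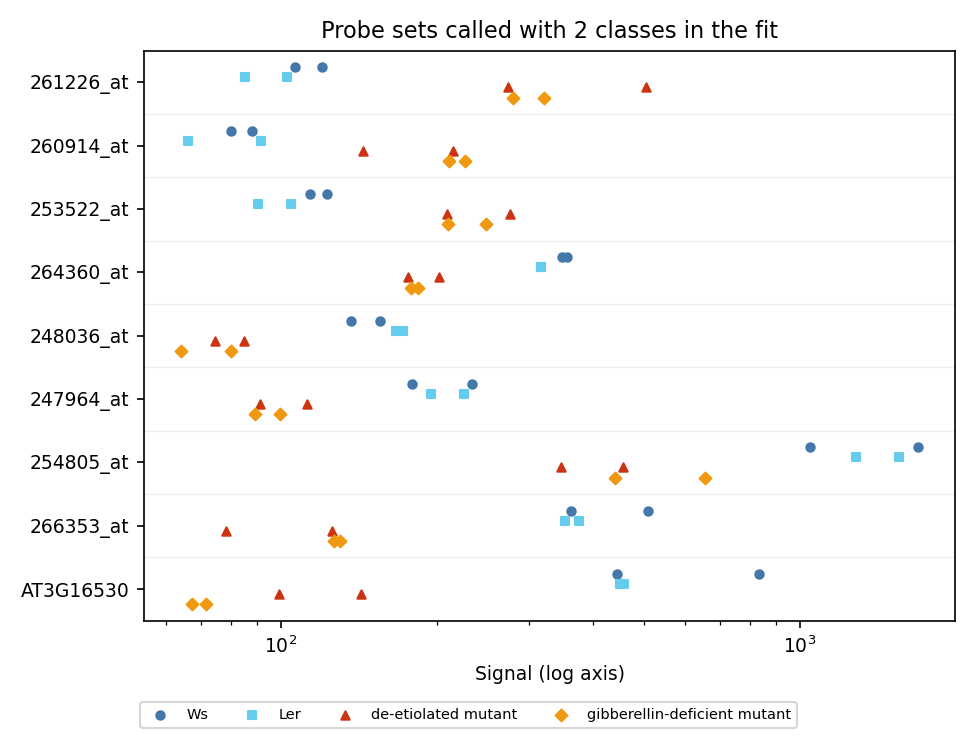
Signal, on a log axis, of the 9 probe sets called when mutants and wild types were fitted as 2 classes, with 1 point for each array. In each row the 4 mutant arrays lie on 1 side of the 4 wild-type arrays; in AT3G16530 the gibberellin-deficient arrays lie below the de-etiolated ones.

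Among probe sets that name 1 gene, the 12 largest shared rises were ranked by the smallest of the 4 mutant to wild-type gaps. Apart from PYE and EXPA8 they are known here by locus tag only. Signal of AT4G33666, the first of them, was 37.1 and 38.4 in Ws, 38.6 and 28.7 in Ler, 203 and 239.6 in the de-etiolated line, and 79.9 and 85.9 in the gibberellin-deficient line. It was raised in both mutants, with a change of 1.85 (SE 0.13, limma adjusted p = 2.55e-05), and further in the de-etiolated one. Signal of AT5G19120 was 130 and 136 in Ws, 173 and 101 in Ler, 409 and 282 in the de-etiolated line, and 306 and 217 in the gibberellin-deficient line, a change of 1.14 (SE 0.18). Signal of AT5G63190 was 242 and 249 in Ws, 244 and 193 in Ler, 560 and 352 in the de-etiolated line, and 565 and 467 in the gibberellin-deficient line, a change of 1.04 (SE 0.14). In both of these genes the mutants overlapped each other, while their separation from the wild types was a condition of the choice. AT5G50450 rose by a similar amount in both mutants, with 33.2 to 45.0 in the wild types and 65.2 to 71.2 in the mutants, a change of 0.85 (SE 0.14). AT5G60680 (1.17), AT2G15830 (1.29), AT5G23380 (1.02), AT1G14220 (0.99) and AT3G11930 (1.51) rose as well. AT3G16670 had the largest change of the 12, 2.76 (SE 0.23), but an uneven one. Its signal was 24.4 to 69.1 in the wild types, 99.4 and 121 in the gibberellin-deficient line, and 1340 and 1116 in the de-etiolated line. Its neighbour AT3G16660 was called as well (1.34), without the array order, since Ler replicate 2, at 107, stood above the gibberellin-deficient arrays, at 81.8 and 93.9.

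PYE and EXPA8 were the genes with a symbol among the 12. PYE encodes a basic helix-loop-helix transcription factor of the iron-deficiency response in roots. Its signal was 40.3 and 64.9 in Ws, 49.4 and 42.9 in Ler, 78.8 and 114 in the de-etiolated line, and 106 and 85.2 in the gibberellin-deficient line. Both mutants were higher by about the same amount, with a change of 0.93 (SE 0.18, limma adjusted p = 0.00748). EXPA8 encodes an alpha-expansin, a protein that loosens the cell wall without cutting its polymers. Its signal was 89.8 and 56.1 in Ws, 71.1 and 74.4 in Ler, 207 and 123 in the de-etiolated line, and 126 and 135 in the gibberellin-deficient line, a change of 0.98 (SE 0.18). Here too the mutants overlapped each other.

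The 12 largest shared falls had changes of -2.98 to -1.18, against 0.85 to 2.76 for the 12 rises, and all but CYP71B23 are known here by locus tag. Signal of AT3G16530, the gene nearest to the threshold of the pair test (adjusted p = 0.0822), was 444 and 834 in Ws, 459 and 451 in Ler, 143 and 99.0 in the de-etiolated line, and 67.4 and 71.8 in the gibberellin-deficient line. It was lower in both mutants by -2.49 (SE 0.18, limma adjusted p = 2.55e-05). Signal of AT1G80130 was 974 and 1152 in Ws, 1247 and 1122 in Ler, 568 and 431 in the de-etiolated line, and 181 and 153 in the gibberellin-deficient line, a change of -1.95 (SE 0.11). This gene fell in steps, least in the de-etiolated mutant and most in the gibberellin-deficient one, and its pair-test adjusted p was 0.0834. Signal of AT2G41090 was 664 and 1143 in Ws, 1932 and 1617 in Ler, 354 and 373 in the de-etiolated line, and 228 and 225 in the gibberellin-deficient line, a change of -2.10 (SE 0.14). The wild types themselves differed here, and AT1G65500 differed between them by more. Its signal was 49.9 and 62.6 in Ws and 533 and 466 in Ler, against 25.2 and 29.8 in the de-etiolated line and 25.5 and 11.4 in the gibberellin-deficient line. Its change of -2.79 (SE 0.20) was therefore -0.95 and -1.54 against Ws, and -4.04 and -4.63 against Ler. AT1G70810 was dim in the mutants, at 3.89 and 23.9 in the de-etiolated and 2.26 and 8.72 in the gibberellin-deficient line, against 30.7 to 135 in the wild types. Its change of -2.98 (SE 0.46) is understated by the pseudocount. AT1G43910 (-2.57), AT1G51850 (-1.56), AT4G12490 (-1.49), AT2G29670 (-1.25), AT2G16005 (-1.22) and AT5G17760 (-1.18) completed the locus tags. CYP71B23, a cytochrome P450, had a signal of 33.2 and 98.0 in Ws, 143 and 141 in Ler, 31.8 and 17.3 in the de-etiolated line, and 23.1 and 20.6 in the gibberellin-deficient line, a change of -1.87 (SE 0.28). The gap between Ws replicate 1 and the nearest mutant array was thus small. All 24 ranked genes stayed called without any 1 array, and their adjusted p-values ran from 1.1e-05 to 0.00748.

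**Figure D4:**
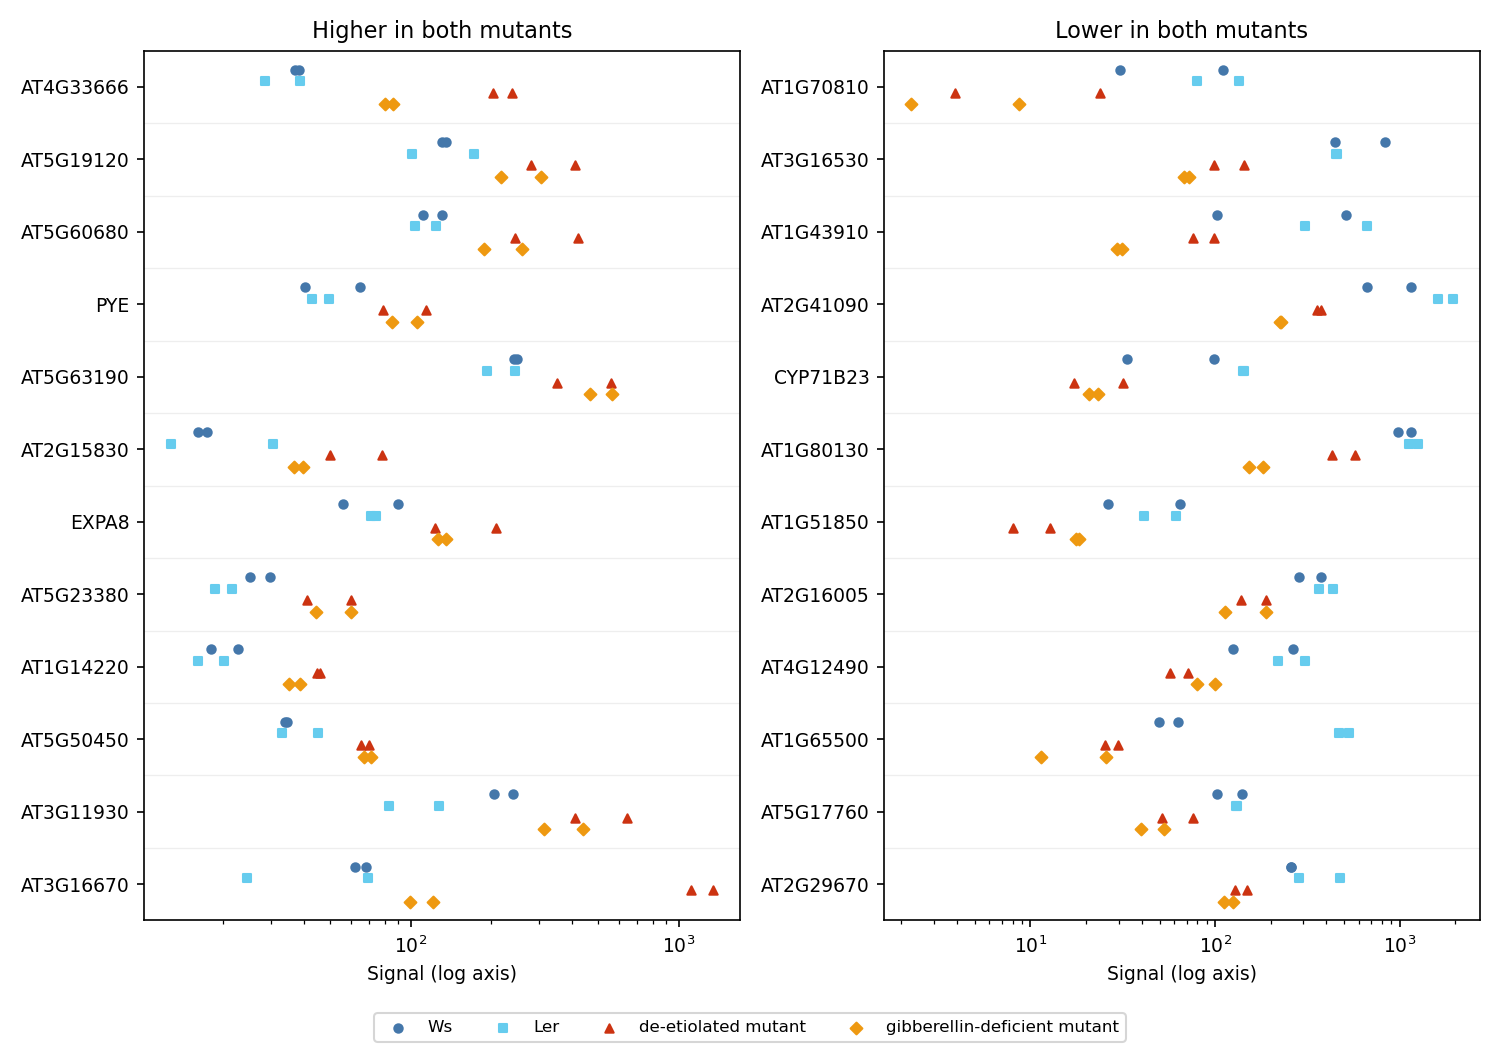
Signal, on a log axis, of the 12 largest shared rises (left) and the 12 largest shared falls (right) that name 1 gene, with 1 point for each array. The mutant arrays lie to the right of the wild-type arrays in the left panel and to their left in the right panel; AT3G16670 reaches 1340 in the de-etiolated line, and AT1G65500 reaches 533 in Ler.

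Genes with a symbol, whose function can be given, were then gone through by role. This group was added after the annotation and the values had been seen. Of the 819 shared differences 72 had a symbol, 29 higher with changes of 0.34 to 0.98 and 43 lower with changes of -1.87 to -0.30. Of these, 8 higher and 17 lower stayed called without any 1 array, and the genes named with values in the next paragraphs are among those 25 unless stated otherwise. They were picked from called genes and put side by side by known role, so they say nothing of how other genes of that role moved. Higher or lower in both mutants means there that the array order was met, and not every gene was called in each mutant by itself. In the de-etiolated mutant against the mean of the wild types, PAC (limma adjusted p = 0.0679) and SGT1A (0.0718), for example, were not called.

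Wall proteins appeared on both sides. The expansin EXPA9 rose with EXPA8, with a signal of 49.4 to 87.3 in the wild types and 90.8 to 135 in the mutants, a change of 0.70 (SE 0.13). TBL25 and TBL39, members of a family that acetylates wall polysaccharides, rose by 0.69 and 0.67, while TBL37 of the same family fell (-0.59). Signal of TBL25 was 237 and 280 in Ws, 221 and 204 in Ler, 324 and 319 in the de-etiolated line, and 434 and 462 in the gibberellin-deficient line. ATPMEPCRB, a pectin methylesterase, fell by -1.22 (SE 0.15). Its signal was 81.8 and 97.9 in Ws, 244 and 169 in Ler, 66.8 and 51.1 in the de-etiolated line, and 53.6 and 54.5 in the gibberellin-deficient line. The wild types differed from each other for this gene (limma adjusted p = 0.00676), and the de-etiolated mutant was not called against Ws (-0.59, 0.170). XTH33, which cuts and rejoins xyloglucan chains, fell from 63.6 to 86.1 in the wild types to 34.6 to 54.3 in the mutants, a change of -0.79 (SE 0.15). The family of xyloglucan endotransglucosylases as a whole had 1 member higher, XTH32, and 1 lower of 8 measured, and expansins had 3 higher and 0 lower of 12, the other being EXPA20 (0.66). The background was 5.52% higher and 6.09% lower, and 1 of 8 is too few to be read as more than that. EXPA20 was without the array order and lost its call without gibberellin-deficient replicate 2 (limma adjusted p = 0.0501). XTH32 was without it too, and lost its call without Ws replicate 2 (0.0513), de-etiolated replicate 1 (0.0503) or either gibberellin-deficient array (0.0647 and 0.0648).

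PPDK, SBE2.2 and SDH2-2 were lower and AKINBETA1 was higher in both mutants. PPDK, pyruvate phosphate dikinase, which interconverts pyruvate and phosphoenolpyruvate, had a signal of 148 and 253 in Ws, 260 and 261 in Ler, 99.7 and 96.1 in the de-etiolated line, and 139 and 137 in the gibberellin-deficient line. It fell by -0.93 (SE 0.15). Signal of SBE2.2, a starch-branching enzyme, was 509 and 612 in Ws, 577 and 673 in Ler, 302 and 419 in the de-etiolated line, and 342 and 388 in the gibberellin-deficient line, a change of -0.71 (SE 0.12). Both enzymes were chosen by the array order, and for PPDK the gap was small, from 148 in Ws replicate 1 to 139 in gibberellin-deficient replicate 1. SDH2-2, the iron-sulfur subunit of mitochondrial succinate dehydrogenase, fell from 375 to 451 in the wild types to 223 to 293 in the mutants, a change of -0.62 (SE 0.10). SDH1-1, the flavoprotein subunit of the same complex, fell by -0.46 (SE 0.10), with its call lost without Ws replicate 2 (limma adjusted p = 0.0533) or gibberellin-deficient replicate 2 (0.0511). AKINBETA1, a regulatory subunit of the SnRK1 kinase that acts when carbon is scarce, rose. Its signal was 80.6 and 69.8 in Ws, 71.6 and 66.8 in Ler, 158 and 124 in the de-etiolated line, and 117 and 127 in the gibberellin-deficient line, a change of 0.83 (SE 0.12). It was 1 of 2 measured members of the list of sugar starvation and darkness, and the other was not called.

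SAPX, MSRB9, CaS, PAC and SUFE2 were lower in both mutants. SAPX, the stromal ascorbate peroxidase, which removes hydrogen peroxide, had a signal of 816 and 877 in Ws, 796 and 777 in Ler, 360 and 424 in the de-etiolated line, and 500 and 522 in the gibberellin-deficient line. Replicates were close, and the change was -0.86 (SE 0.09, limma adjusted p = 0.00031). MSRB9, which reduces oxidised methionine in proteins, fell from 848 to 1006 in the wild types to 449 to 647 in the mutants, a change of -0.77 (SE 0.09). Signal of CaS, a calcium-sensing protein of the thylakoid membrane, was 880 and 1104 in Ws, 1019 and 1042 in Ler, 724 and 785 in the de-etiolated line, and 519.5 and 600 in the gibberellin-deficient line, a change of -0.63 (SE 0.10). PAC, needed for the maturation of chloroplast RNA (-0.76), and SUFE2, which activates sulfur transfer for iron-sulfur clusters (-0.67), were lower too. Of 5 measured nuclear genes of light harvesting and the photosystems 1 was called higher and 0 lower, too few to read against the background of 5.52% higher and 6.09% lower.

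RING1, SGT1A and OPCL1 were lower in both mutants. RING1 encodes a ubiquitin ligase with a part in programmed cell death at infection. Its signal was 43.8 and 55.3 in Ws, 154 and 86.7 in Ler, 30.5 and 32.2 in the de-etiolated line, and 16.1 and 16.6 in the gibberellin-deficient line, a change of -1.61 (SE 0.19). The wild types differed from each other for RING1 (limma adjusted p = 0.0212), and the de-etiolated mutant was not called against Ws (-0.61, 0.267). SGT1A, a co-chaperone of immune receptors, fell from 76.7 to 119 in the wild types to 61.1 and 67.4 in the de-etiolated line and 38.5 and 29.6 in the gibberellin-deficient line, a change of -0.97 (SE 0.14). OPCL1, a peroxisomal enzyme of jasmonate synthesis, had a signal of 78.3 and 95.9 in Ws, 95.1 and 105 in Ler, 54.6 and 55.9 in the de-etiolated line, and 47.0 and 49.0 in the gibberellin-deficient line, a change of -0.82 (SE 0.13). OPCL1 thus fell evenly, whereas SGT1A and RING1 were lowest in the gibberellin-deficient mutant. ATERDJ3B, a co-chaperone of the endoplasmic reticulum (-0.51), and SDRB, a peroxisomal reductase (-0.69), were also lower. CP5 (0.78) and the subtilisin-like protease SBT1.3 (0.60) rose, each mainly in 1 mutant. CP5 had a signal of 375 to 440 in the wild types, 1123 and 865 in the de-etiolated line, and 512 and 500 in the gibberellin-deficient line. For SBT1.3 the order was the opposite, with 277 to 306 in the wild types, 339 and 332 in the de-etiolated line, and 632 and 589 in the gibberellin-deficient line. No member of the lists of salicylate-type defence and of jasmonate synthesis and response was measured, so these genes stand alone.

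Among the gene lists, that of the low-oxygen response, genes switched on when oxygen is short, had most of its measured members called. Of 12 measured members 9 were called higher and 0 lower (background 5.52% higher), with a median change of 0.99, but only AT3G27220 had every mutant array above every wild-type array. Among the 9, AT3G03270 differed between the wild types, with 424 and 423 in Ws and 81.2 and 79.3 in Ler. At 182 and 124 the gibberellin-deficient line lay below Ws there, and the de-etiolated line was at 1227 and 504. AT5G66985, also among the 9, was lower in the de-etiolated line (170 and 178) than in Ler (275 and 188). Neither met the order of group means. Tested by itself against the mean of the wild types, the gibberellin-deficient mutant had 9 of the 12 called and a median of 1.62. The de-etiolated mutant had 2 called and a median of 0.67. Over all probe sets tested, 18.2% and 11.0% were called in these tests in either direction, so 2 of 12 is too few to be read as more than that. AT3G03270 was among those 2 and was not called in the gibberellin-deficient mutant. The list was written with earlier results of these data known. The geometric mean signal of the 12 was 97.3 and 102.5 in Ws, 130 and 79.5 in Ler, 227 and 106 in the de-etiolated line, and 283 and 233 in the gibberellin-deficient line. De-etiolated replicate 2 was thus among the wild-type arrays, and its partner was not. Signal of AT3G27220 was 52.5 and 47.3 in Ws, 67.8 and 41.4 in Ler, 107 and 74.6 in the de-etiolated line, and 136 and 124 in the gibberellin-deficient line, a change of 1.03 (SE 0.17). Signal of AT4G27450 was 662 and 578 in Ws, 915 and 420 in Ler, 1541 and 659 in the de-etiolated line, and 1933 and 1912 in the gibberellin-deficient line, a change of 1.16 (SE 0.25). Its call was lost without gibberellin-deficient replicate 1 (limma adjusted p = 0.0525). AT5G10040 (1.36), AT2G17850 (1.30) and AT1G33055 (1.16) were called as well. AT5G10040 lost its call without Ws replicate 1 (adjusted p = 0.0591), Ler replicate 2 (0.0627), de-etiolated replicate 1 (0.0745) or gibberellin-deficient replicate 1 (0.0905), and AT2G17850 without Ws replicate 2 (0.0529), de-etiolated replicate 1 (0.0626) or gibberellin-deficient replicate 1 (0.0823). AT1G33055 kept its call only without Ler replicate 1 or de-etiolated replicate 2, and its adjusted p without any 1 of the other arrays was 0.0548 to 0.107. The number of members called was 3 without gibberellin-deficient replicate 1, 5 without de-etiolated replicate 1 or Ler replicate 2, 6 without either Ws array, and 11 without de-etiolated replicate 2. It was 4 with no filter on low values, 5 without the trend, 3 at a threshold of 0.01 and 0 in the 2-class fit.

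**Figure D5:**
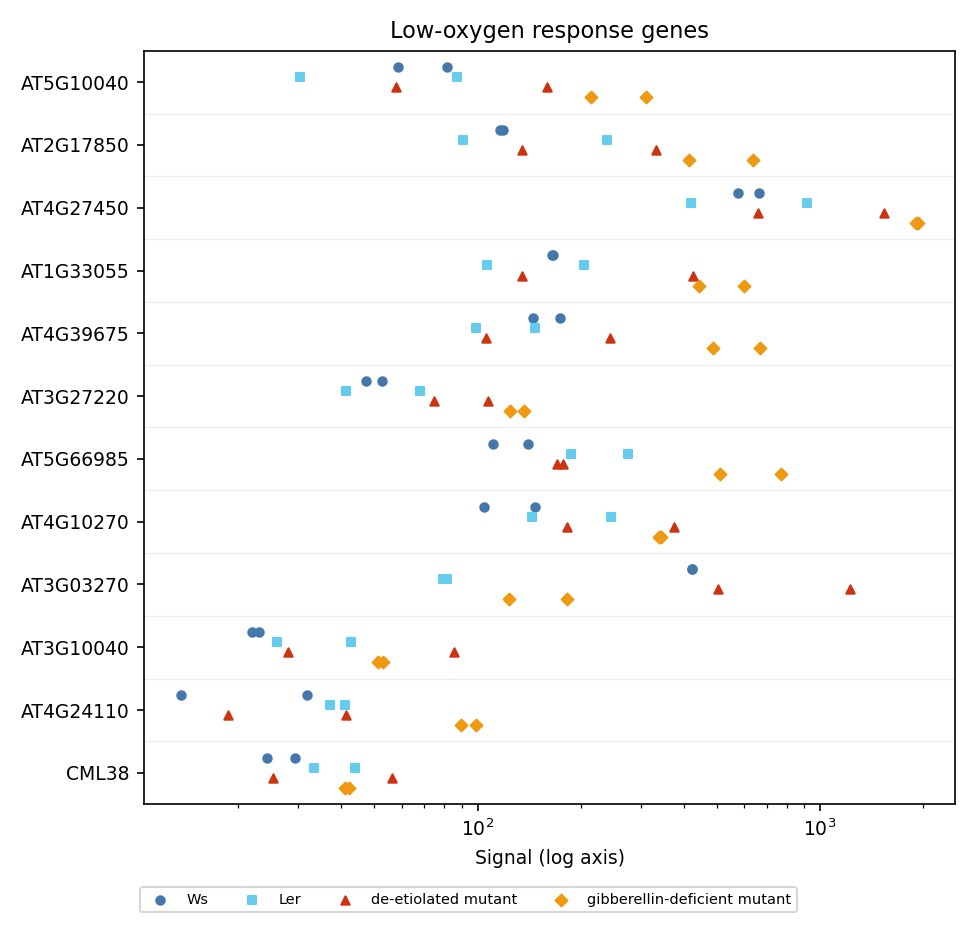
Signal, on a log axis, of the 12 measured members of the low-oxygen list, with 1 point for each array. The gibberellin-deficient arrays are high for most members, de-etiolated replicate 2 falls among the wild-type arrays for most, and AT3G27220 alone separates all mutant from all wild-type arrays.

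Other lists held few measured or few called members, to be read against a background of 5.52% called higher and 6.09% called lower. Both measured members of iron homeostasis were shared rises, PYE and AT1G47400. Signal of AT1G47400 was 40.4 and 42.3 in Ws, 34.9 and 29.1 in Ler, 116 and 265 in the de-etiolated line, and 52.1 and 46.3 in the gibberellin-deficient line. Its change of 1.30 (SE 0.21) lay mostly in the de-etiolated mutant, while that of PYE was the same in both. By itself against the mean of the wild types, the gibberellin-deficient mutant was not called for AT1G47400 (0.41, limma adjusted p = 0.313). Of 8 measured genes of gibberellin synthesis, inactivation and signalling 1 rose and 0 fell, without the array order. The 1 measured gene of the brassinosteroid list fell (-0.66), also without it. Of the single measured genes of light signalling and of the circadian clock neither was called. Of 5 measured genes of flavonoid and anthocyanin synthesis 2 fell, DFR (-0.72), which makes the precursors of anthocyanins, and AT4G14090 (-0.73). Both were lower in the de-etiolated mutant and higher in the gibberellin-deficient mutant than in Ws, so they are not shared. The call of DFR was lost without Ws replicate 2 (limma adjusted p = 0.0689), de-etiolated replicate 1 (0.0691) or either gibberellin-deficient array (0.0842 and 0.0576). That of AT4G14090 was lost without replicate 2 of Ws (0.0993), of Ler (0.0817) or of the de-etiolated mutant (0.0793), or without either gibberellin-deficient array (0.101 and 0.0821). Of 68 plastid-encoded genes 1 was higher and 10 were lower, against the background of 5.52% and 6.09%, with a median change of -0.01, and none had the array order. The ribosomal protein genes rpl22 (-1.15), rpl14 (-1.24) and rps3 (-0.86) were called on the signal of the gibberellin-deficient mutant, where rpl22 was at 339 and 256, against 1241 to 1715 in the other 6 arrays. The UDP-glycosyltransferases, which attach sugars to hormones and other small molecules, had 1 higher and 1 lower of 22 measured members. Glutathione transferases, which detoxify by adding glutathione, had 1 higher and 1 lower of 7, and class III peroxidases, which act in the wall, 1 and 1 of 3. Cytochromes P450 had 0 higher and 1 lower of 8, the cold and dehydration list 2 higher and 0 lower of 4, and the list of early auxin response 1 and 0 of 3. Counts of 1 in lists of this size cannot be read as more than the background.

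The mutants also differed from each other. Between them 2646 probe sets were called (19.4%), a larger count than for the mean of both against the wild types. Among the 819 shared differences 87 were called between the mutants (10.6%), 30 further from the wild types in the de-etiolated and 57 in the gibberellin-deficient line. The probe sets were chosen by their order in both mutants, so this share is a description. Against the mean of both wild types, 451 of the 819 were called when the de-etiolated mutant was tested by itself, 598 when the gibberellin-deficient mutant was, and 292 in both of these tests. Their background counts were 1501 (11.0%) and 2482 (18.2%) of all probe sets tested. These 2 comparisons share the wild-type arrays. Ws and Ler differed from each other in 34 of the 819 (4.15%), with 794 called over all probe sets tested (5.82%).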

How the data were processed

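The deposited table gives a linear signal intensity per probe set for every array. Per the submitters' processing notes the tool was MAS5, whose further settings are not given in the sources used here. The arrays had a common 2%-trimmed mean. It covers 22810 probe sets, 64 of them controls. In the platform annotation 13513 name 1 gene, 503 name several and 8794, controls included, name none here. Of the 13513, 13436 matched a locus tag of the RefSeq gene table (TAIR10.1), used for names and chromosomes.

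A pseudocount of 2.96, or 10% of the median signal of probe sets naming a gene, was added before taking log2, so changes of dim genes are understated. Controls and the dimmest 40% of probe sets by mean log2 value were dropped, which left 13648 to test. One limma fit with a mean-variance trend held all 8 arrays as 4 group means, on 4 residual and 8.00 prior degrees of freedom. P-values were two-sided and adjusted by Benjamini-Hochberg, and an adjusted p under 0.05 was a call. For the mutants against the wild types the median SE was 0.140. The number of arrays limits the precision.

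Named were the 12 largest rises and 12 largest falls, up to 4 called members of each gene list with at least 2 called, markers, and the genes nearest to the pair-test threshold. No probe set passed that test, so the ranking used the array order. Genes with symbols and the 9 probe sets of the 2-class fit were added after their values were seen. Members and lists were chosen with earlier results of these data known. Of 37 lists 25 had measured members, and where a gene had several probe sets the brightest stood for it. Replicate numbers come from the titles. Deviations from the group means correlated at -0.03 to 0.14 between same-numbered arrays, so the numbers were not taken to pair the samples. Alternatives covered the pseudocount, the filter, the normalization, the trend, 2 classes, a replicate block, cross-hybridising probe sets, the threshold and leaving out each array. The planned search for promoter motifs was not run, since no promoter sequences were used here. The main contrast, the pair test and the 2-class fit were tried on simulated data, without the filter and the pseudocount. The other steps were not. The software was limma 3.58.1 in R 4.3.3, and numpy 2.4.6, matplotlib 3.10.9 and pandas 2.3.3 in Python 3.11.15.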

Additional observations from a re-analysis of the deposited data

Results flagged for a closer look

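Some named genes differed between the mutants, by the test of the de-etiolated minus the gibberellin-deficient mutant (limma, adjusted p under 0.05 over all probe sets tested). Given as that log2 difference, the shared rises AT3G16670 (3.44), AT4G33666 (1.38) and AT1G47400 (1.78) were further from the wild types in the de-etiolated mutant. The shared falls AT1G80130 (1.55) and AT2G41090 (0.68) were further from them in the gibberellin-deficient mutant. Further shared differences with a symbol were called between the mutants too. Among them, CP5 (0.96) was further from the wild types in the de-etiolated mutant. SBT1.3 (-0.86), TBL25 (-0.47), SGT1A (0.87), RING1 (0.83), MSRB9 (0.44) and CaS (0.43) were further from them in the gibberellin-deficient mutant. The other genes given below were called in the mean of both mutants without every mutant array lying beyond every wild-type array. Several of these calls were lost in fits without 1 array, in 6 of 8 for COR47 (adjusted p up to 0.127) and AT5G64120 (up to 0.129), 5 for GSTU27 (up to 0.0913) and AT4G14090 (up to 0.101), 4 for DFR (up to 0.0842) and XTH32 (up to 0.0648), 3 for UGT87A2 (up to 0.0689) and 1 for UGT71C1 (0.0525). Of these, UGT71C1 (-1.19), DI21 (-1.65), XTH32 (-0.91) and COR47 (-0.60) were higher in the gibberellin-deficient mutant, and GSTU27 (0.91) and UGT87A2 (1.84) were lower there. The anthocyanin genes DFR (-3.31) and AT4G14090 (-3.74), and the peroxidase AT5G64120 (-1.89), were lower in the de-etiolated mutant. The plastid genes rps3 (1.42), rpl22 (2.37) and rpl14 (2.12) were lower in the gibberellin-deficient mutant.

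Outside the probe sets of genes, the 25S ribosomal RNA control was higher in every mutant array than in any wild-type array, with 39.6 in the lowest mutant array.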

How the results depend on the processing

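The comparison of means gave 1585 calls, and 1041 with no filter on low values, 481 at a threshold of 0.01 and 9 with 2 classes. Leaving out 1 array gave 734 to 1570. The other settings stayed within 1.5 times, with 1600 calls, 722 higher and 878 lower, when arrays were centred on the median. Calls with the group order (1277) came to 409 at a threshold of 0.01, 9 with 2 classes and 593 to 1299 without 1 array. Calls with the array order (819) came to 303, 9 and 444 to 1068. The pair test called 0, but 3 with the replicate block and 0 to 8 without 1 array. Calls between the mutants (2646) came to 1346 at a threshold of 0.01 and 1379 to 2586 without 1 array. With the replicate block there were 1744 calls, 1389 with the group order, 839 with the array order and 2773 between the mutants, so apart from the pair test it moved no count by over 1.5 times. Of 134 named probe sets none that was called changed direction. Uncalled markers changed sign without 1 array, EXPA18 without Ws replicate 2 (range -0.0197 to 0.283), RCA without de-etiolated replicate 1 (-0.392 to 0.189) and EXPA7 without gibberellin-deficient replicate 2 (-0.317 to 0.0377). The causes of these shifts were not tested, except that fewer arrays and a stricter threshold leave less power by construction. With 1 array left out, the array order is also asked of fewer arrays, which makes it easier to meet. The de-etiolated mutant's accession, the 25S signal and the unknown separateness of replicates limit all counts, and depth is not known for arrays.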
